A study of Mus musculus with 8 samples.

Results

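The data describe 10 chemokine genes, Ccl2, Ccl5, Ccl7, Ccl20, Cxcl1, Cxcl5, Cxcl10, Cxcl12, Cxcl16 and Cx3cl1, in 8 bulk RNA sequencing libraries of the mouse mammary tumour lines 4T1 and TS/A, both derived from BALB/c mice. The genes were picked by name from 22026 in the deposited tables. The rule uses no measured value, but the genes were chosen with earlier results of these data known. Each line had been transduced with a virus vector expressing Gpr56, the adhesion receptor now named Adgrg1, or with an empty vector, and each of the 4 groups held 2 libraries. Per the design text, cells were cultured with type III collagen, a ligand of Gpr56, and RNA was taken after 72 h. The medium held 10% FCS. All 4 groups thus share transduction and, as far as the design text goes, the collagen. The vector's promoter, and whether a line was 1 clone or a pool, are not stated in the labels. The sample titles name the groups Emp_ColIII and Emp_Control, which reads as a contrast of culture. The characteristics name them by vector, and the groups follow the characteristics. Nothing states that the libraries within a group stem from different cultures. The p-values therefore cover only their spread, which may be technical.

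Adgrg1 was read first as a check of the labels. It stood at 90.5 and 100.1 CPM (reads scaled to depth by the TMM method) in the 4T1 libraries labelled Gpr56 vector, against 2.53 and 2.77 CPM in 4T1 empty vector libraries, a log2 fold change of 5.15 (adjusted p = 7.74e-14 in edgeR). In TS/A it stood at 22.6 and 13.3 CPM in the libraries labelled Gpr56 vector, against 34.8 and 16.3 CPM in the empty vector libraries. The 4T1 labels thus go with the targeted gene and the TS/A labels do not. Depth was 10510569 to 25959142 reads per library, so that 3 reads, taken as the detection floor, were 0.116 to 0.285 CPM. In bulk RNA, fewer cells of a kind and less RNA per cell cannot be told apart. Among the epithelial markers fixed for these lines, 4T1 held Epcam at 46.2 to 69.2 CPM, while TS/A held it at 0 to 0.0865 CPM. Krt8, Krt7 and Cdh1 were under 1 CPM in every TS/A library. Krt18 stood at 157 to 202 CPM there, Krt19 at 32.3 to 55.0 CPM and Krt14 at 0.684 to 2.03 CPM.

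Chemokines are small secreted or membrane-bound proteins that direct the migration of leukocytes through G protein-coupled receptors. They are grouped by the spacing of their N-terminal cysteines into CC, CXC and CX3C classes. Ccl2 and Ccl7 draw monocytes through Ccr2, Ccl5 draws T cells and monocytes, and Ccl20 acts through Ccr6. Cxcl1 and Cxcl5 carry the ELR motif and draw neutrophils through Cxcr2. Cxcl10 is induced by interferons and acts on Cxcr3, while Cxcl12 acts on Cxcr4 and the scavenging receptor Ackr3. Cxcl16 and Cx3cl1 are made as transmembrane proteins and shed by the proteases Adam10 and Adam17. Several of these genes are classical targets of NF-kappaB, and in breast tumours chemokines made by the cancer cells are known to shape the myeloid infiltrate.

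The genes lie in several clusters of the mouse genome (GRCm38, GENCODE M21). Ccl2 (chr11:82035571-82037453, plus strand) and Ccl7 (chr11:82045712-82047525, plus strand) are neighbours 8.26 kb apart. Ccl5 (chr11:83525778-83530518, minus strand) and Cxcl16 (chr11:70453983-70459984, minus strand) lie on the same chromosome. Cxcl5 (chr5:90759360-90761624, plus strand), Cxcl1 (chr5:90891241-90893115, plus strand) and Cxcl10 (chr5:92346638-92348889, minus strand) share chromosome 5. Ccl20 (chr1:83116766-83119167) and Cxcl12 (chr6:117168535-117181367) are on the plus strand. Cx3cl1 (chr8:94772009-94782427, plus strand) lies 192 kb from Adgrg1 itself (chr8:94974751-95014217).

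Promoter sequences from RefSeq (GRCm38.p6) were available for Ccl20, Cxcl1, Cxcl10, Cxcl12 and Cx3cl1. The 250 bases before the RefSeq start of these 5 genes are shown as the sequence beside which their levels can be read. The RefSeq starts of Cxcl1 and Cx3cl1 lie downstream of the GENCODE starts given above, so that most of the Cx3cl1 window lies within the GENCODE gene. Capitals mark NF-kappaB consensus matches on either strand, a match to the interferon-stimulated response element (ISRE: GAAA, any 2 bases, GAAA) in Cxcl10 and the letters TATAAA in Cx3cl1. The reference is from the strain C57BL/6J and not from BALB/c.
Ccl20 promoter, chr1:83116516-83116765, plus strand: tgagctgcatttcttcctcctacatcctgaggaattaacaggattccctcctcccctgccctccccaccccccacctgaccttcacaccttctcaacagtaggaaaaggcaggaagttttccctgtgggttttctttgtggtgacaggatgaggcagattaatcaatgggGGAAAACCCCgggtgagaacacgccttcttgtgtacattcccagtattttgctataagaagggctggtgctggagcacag
Cxcl1 promoter, chr5:90890995-90891244, plus strand: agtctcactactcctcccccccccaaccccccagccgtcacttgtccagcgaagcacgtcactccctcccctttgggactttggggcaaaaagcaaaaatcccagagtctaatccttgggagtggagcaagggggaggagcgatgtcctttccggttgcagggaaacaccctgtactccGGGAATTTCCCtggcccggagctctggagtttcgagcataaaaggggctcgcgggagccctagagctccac
Cxcl10 promoter, chr5:92348890-92349139, minus strand: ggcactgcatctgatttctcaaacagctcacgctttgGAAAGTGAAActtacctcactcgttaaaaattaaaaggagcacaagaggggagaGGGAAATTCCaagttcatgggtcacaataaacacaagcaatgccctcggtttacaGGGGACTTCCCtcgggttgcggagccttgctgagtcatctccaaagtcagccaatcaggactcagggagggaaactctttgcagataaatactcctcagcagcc
Cx3cl1 promoter, chr8:94771930-94772179, plus strand: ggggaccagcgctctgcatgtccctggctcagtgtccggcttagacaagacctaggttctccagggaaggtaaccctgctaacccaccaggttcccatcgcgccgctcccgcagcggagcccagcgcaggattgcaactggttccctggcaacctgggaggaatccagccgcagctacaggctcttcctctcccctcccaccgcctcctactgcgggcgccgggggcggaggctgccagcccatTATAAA
Cxcl12 promoter, chr6:117168285-117168534, plus strand: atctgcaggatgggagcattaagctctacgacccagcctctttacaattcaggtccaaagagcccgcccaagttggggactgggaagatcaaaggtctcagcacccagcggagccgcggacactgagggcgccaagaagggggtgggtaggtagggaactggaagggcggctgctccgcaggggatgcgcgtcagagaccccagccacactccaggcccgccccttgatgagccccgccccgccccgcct
Read on both strands, the NF-kappaB match began 80 bases before the start in Ccl20, 71 in Cxcl1, where matches on the strands overlap, and 159 and 104 in Cxcl10, the second again with overlapping matches. The same search found the NF-kappaB consensus in 7.25% of 32851 mouse promoter windows of the same length. Cxcl10 also held the ISRE at 213 bases, an element found in 2.98% of windows, and a TGANTCA (AP-1) match at 74 bases, found in 6.75%. A GGGCGG box was found in Cxcl12 and Cx3cl1 and in 32.7% of windows, and TATAAA in 12.4%. The TATAAA of Cx3cl1 began 6 bases before the RefSeq start, and so lay within the GENCODE gene. Such matches describe letters in these windows and are not evidence of binding.

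Per length, Cxcl1, Cxcl5 and Ccl2 led the 10 genes in every group. In the 4T1 libraries labelled Gpr56 vector the deposited RPKM (reads scaled to transcript length and depth, summed over transcripts) averaged 457 ± 16.2 for Cxcl5, 416 ± 0.0826 for Cxcl1 and 129.5 ± 3.94 for Ccl2 (SD, n = 2). Cxcl16 followed at 79.1 ± 1.09, Ccl20 at 20.7 ± 0.326, Ccl5 at 11.2 ± 0.905, Cxcl10 at 7.65 ± 1.10, Cx3cl1 at 5.99 ± 0.264 and Ccl7 at 1.81 ± 0.130 RPKM. Both libraries gave this order, and no neighbours in it overlapped. In 4T1 empty vector libraries the top 4 were the same, with Cxcl5 at 362 ± 7.35, Cxcl1 at 313 ± 17.6, Ccl2 at 197.5 ± 9.55 and Cxcl16 at 59.4 ± 4.05 RPKM. The rest overlapped with a neighbour in part: Ccl20 (9.53 ± 2.50) with Cx3cl1 (9.42 ± 0.470), Ccl5 (6.77 ± 0.648) with Ccl7 (5.45 ± 1.295), and Ccl7 with Cxcl10 (4.70 ± 1.25 RPKM).

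TS/A had another order, with Cxcl1 far above Cxcl5. In the libraries labelled Gpr56 vector Cxcl1 averaged 445 ± 66.1 RPKM, Cxcl5 66.9 ± 7.56, Ccl2 65.7 ± 12.3 and Ccl5 17.9 ± 0.816, where Cxcl5 and Ccl2 overlapped. The other 6 genes lay between 1.95 and 4.79 RPKM in these libraries, and each overlapped with its neighbour. In TS/A empty vector libraries Cxcl1 averaged 465 ± 154 RPKM, Cxcl5 109 ± 15.4, Ccl2 83.9 ± 17.7 and Ccl5 10.6 ± 3.25, with no overlap among these 4. The other 6 lay between 2.08 and 6.85 RPKM. The ratio of Cxcl5 to Cxcl1 RPKM was 0.182 and 0.125 in TS/A libraries labelled Gpr56 vector and 0.337 and 0.171 in TS/A empty vector libraries. It was 1.13 and 1.07 in 4T1 libraries labelled Gpr56 vector and 1.19 and 1.13 in 4T1 empty vector libraries.

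**Figure D1:**
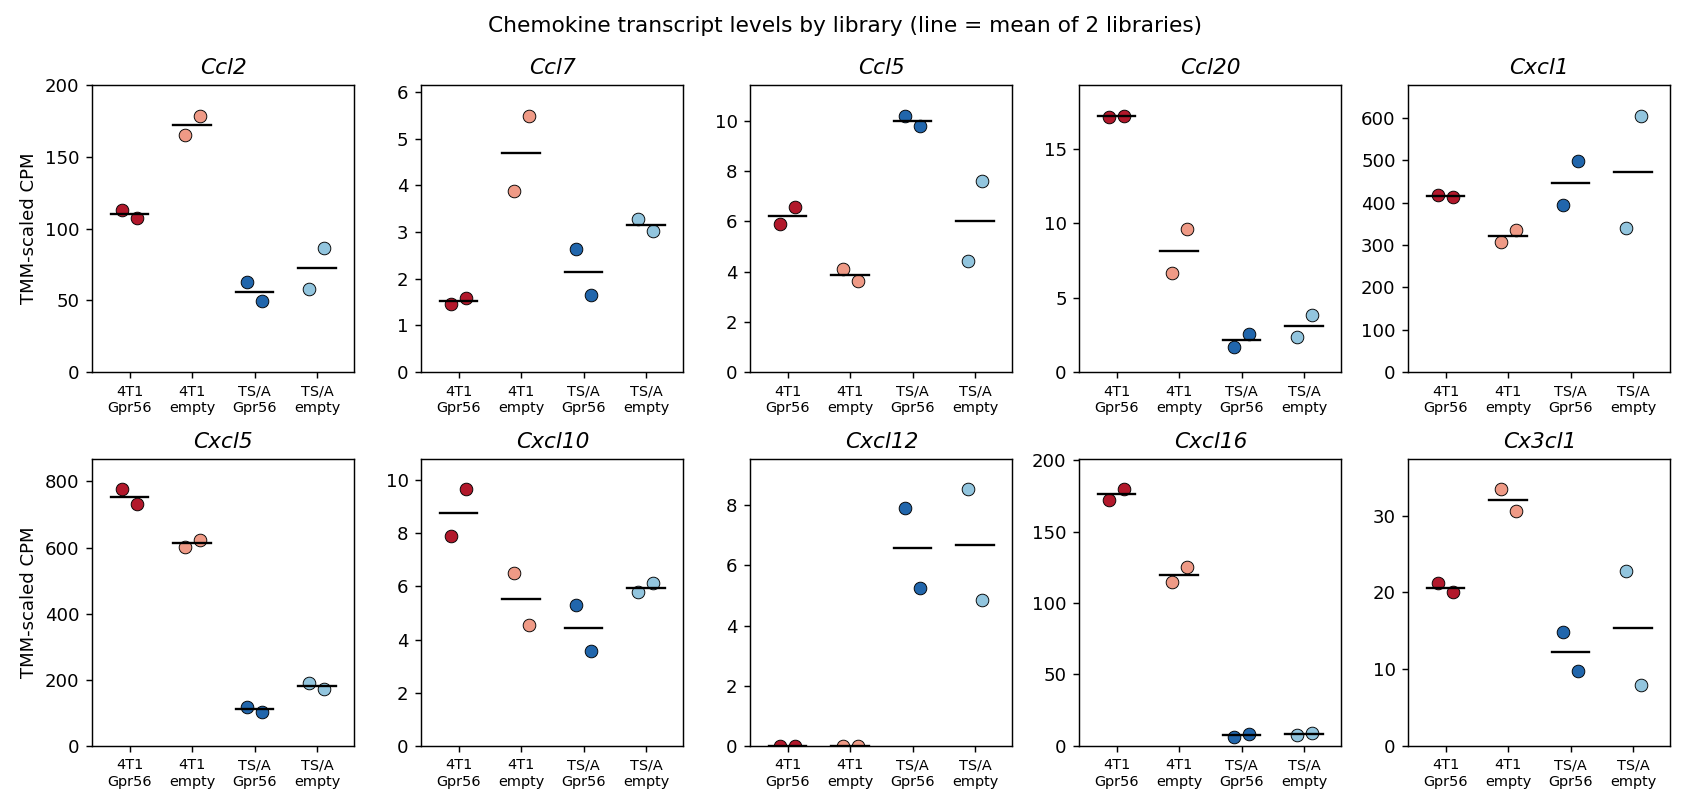
TMM-scaled CPM of each chemokine (vertical axes, each from 0) in the 8 libraries by line and vector label (horizontal axis); points are libraries and lines are the mean of 2. In 4T1 the 2 vector groups separate for 9 genes, and Cxcl12 is at 0 there, while in TS/A the groups overlap for 6 of 10.

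In 4T1, 9 chemokines had reads and passed the filter on low counts, and 9 of these 9 changed with the Gpr56 label, 6 higher and 3 lower. Of all 11361 genes tested in 4T1, 22.8% were called, 11.5% higher and 11.3% lower, at an adjusted p under 0.05 in edgeR's quasi-likelihood test with Benjamini-Hochberg adjustment. The monocyte attractants Ccl2 and Ccl7 and the membrane-bound Cx3cl1 fell. Ccl20, Cxcl16, Cxcl1, Cxcl5, Ccl5 and Cxcl10 rose, so that the 4 tested CXC genes moved 1 way while the CC genes and the membrane-bound pair split. The median log2 fold change of the 9 was 0.37 and the median size 0.64, where all tested genes had a median of -0.0004 and a median size of 0.159. The 2 libraries of each group lay on 1 side of both others for 9 of the 9 genes, as for 61.7% of all tested genes, 30.5% higher and 31.2% lower.

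These calls come from the fit of 4T1 alone, where the biological coefficient of variation was 5.47%. It was 14.7% when all 8 libraries shared 1 estimate. In that fit 0 of the 10 chemokines passed, with adjusted p between 0.111 for Ccl7 and 0.645 for Cxcl1 among the 9 with reads in 4T1, although 7 had an unadjusted p under 0.05. Of 11970 genes tested there, 0.226% were called and 11.4% had an unadjusted p under 0.05. The log2 fold changes themselves moved little, as for Ccl2 (-0.64 in both fits) and Ccl7 (-1.63 against -1.64 in 4T1 alone). In the fit of 4T1 alone the count over all genes was 2588, and 1596 without empty vector library 1 and 1403 without empty vector library 2. Scaling by library totals in place of TMM gave 1624 genes higher and 1042 lower, against 1308 higher and 1280 lower.

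Ccl2, a monocyte attractant, stood at 113 and 108 CPM in the 4T1 libraries labelled Gpr56 vector, against 166 and 179 CPM in empty vector libraries. Both labelled libraries lay well under both empty vector libraries. The log2 fold change was -0.64 (SE 0.06, adjusted p = 4.31e-06). Its neighbour Ccl7, the far scarcer of the pair per length, stood at 1.45 and 1.59 CPM with the Gpr56 label against 3.88 and 5.50 CPM with the empty vector. It had the largest decrease of the 9 genes, with a log2 fold change of -1.64 (adjusted p = 0.00114, SE 0.30), and 1.25% of all tested genes had a log2 fold change of at least that size. Both CC genes of the Ccr2 group thus fell, by 1.56-fold for Ccl2 and 3.12-fold for Ccl7.

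Ccl20, the ligand of Ccr6, rose the most. It stood at 17.2 and 17.2 CPM in 4T1 libraries labelled Gpr56 vector, against 6.69 and 9.63 CPM in empty vector libraries, a log2 fold change of 1.06 (SE 0.16, adjusted p = 2.66e-04). The labelled libraries were nearly equal, and the empty vector libraries differed from each other without reaching them. At least this size was seen in 3.23% of tested genes. Ccl5 stood at 5.90 and 6.56 CPM with the Gpr56 label against 4.11 and 3.62 CPM with the empty vector (log2 fold change 0.68, adjusted p = 0.0318, SE 0.21). The Ccl5 call was lost without empty vector library 1 (0.0889), empty vector library 2 (0.237) or Gpr56 library 2 (0.0813), and in DESeq2 (0.135).

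Both neutrophil attractants rose by a modest fold. Cxcl1 stood at 417 and 414 CPM in 4T1 libraries labelled Gpr56 vector, against 306 and 334 CPM in empty vector libraries (a log2 fold change of 0.37 with SE 0.06, adjusted p = 2.62e-04). Cxcl5 stood at 776 and 732 CPM with the Gpr56 label, against 601 and 624 CPM with the empty vector (0.30, SE 0.05, adjusted p = 8.93e-04). The groups were apart for both genes. These were also the smallest changes of the 9, and 19.3% and 26% of tested genes changed by at least as much as Cxcl1 and Cxcl5. The summed level of the 10 genes was 1532 and 1488 CPM with the Gpr56 label, against 1242 and 1316 CPM with the empty vector. Cxcl1 and Cxcl5 together made up 77.9% and 77.0% of that sum with the Gpr56 label and 73.0% and 72.8% with the empty vector.

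Cxcl10, the interferon-induced ligand of Cxcr3, stood at 7.91 and 9.65 CPM with the Gpr56 label against 6.52 and 4.56 CPM with the empty vector in 4T1. Its log2 fold change was 0.65 (SE 0.21, adjusted p = 0.0316), and the groups did not overlap. The call was lost without empty vector library 2 (adjusted p = 0.32) or Gpr56 library 2 (0.117), and in DESeq2 (0.105). Cxcl10 and Ccl5 were thus the calls lost in these settings. In the fit of all 8 libraries, Cxcl1 and Cx3cl1 had the highest unadjusted p of the 9 (0.163 and 0.158 in edgeR).

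The membrane-bound chemokines moved in opposite directions. Cxcl16 stood at 173 and 179.7 CPM in 4T1 libraries labelled Gpr56 vector, against 115 and 125 CPM in empty vector libraries (0.55 on the log2 scale with SE 0.06, adjusted p = 1.83e-05). Cx3cl1 stood at 21.2 and 20.1 CPM with the Gpr56 label, against 33.4 and 30.6 CPM with the empty vector (-0.63, SE 0.10, adjusted p = 4.55e-04). Neither pair of groups overlapped. Cxcl12, the ligand of Cxcr4, had 0 reads in each of the 4 libraries of 4T1, which allows up to 0.285 CPM in the shallowest library and up to 0.168 CPM in the others.

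**Figure D2:**
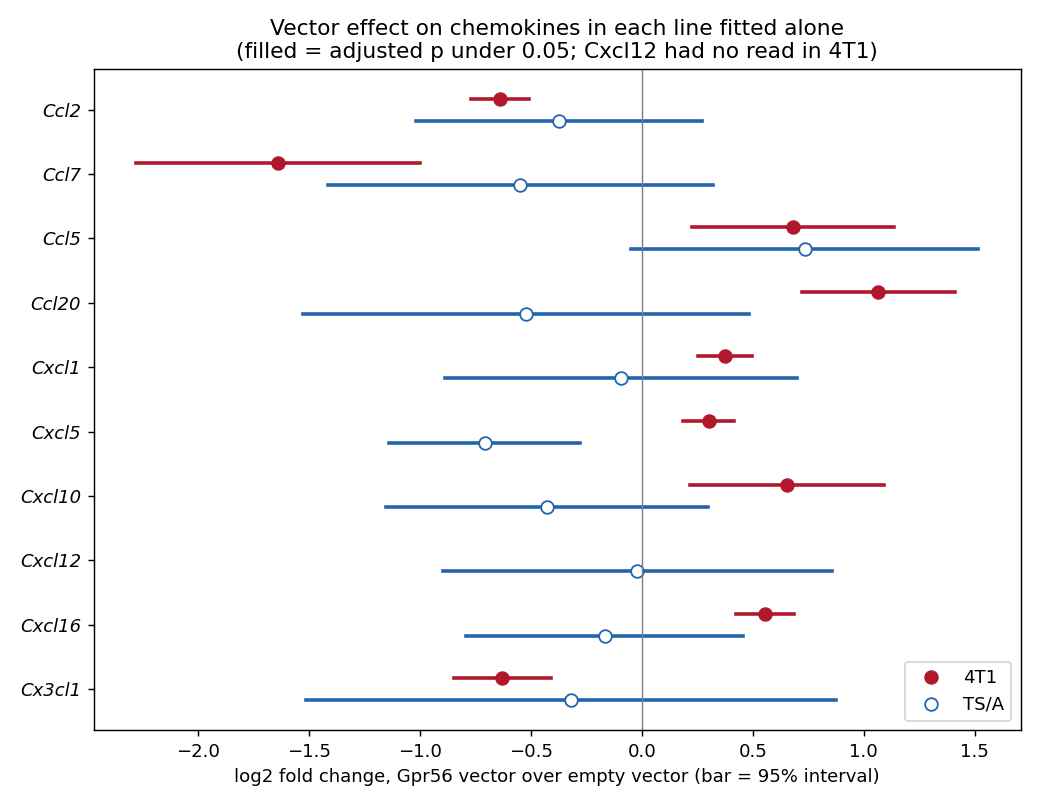
Log2 fold change of each chemokine, Gpr56 vector over empty vector (horizontal axis), with 95% intervals, in 4T1 (red) and TS/A (blue), each line fitted alone; filled points had an adjusted p under 0.05. In 4T1 6 genes lie above 0 and 3 below, and in TS/A the intervals are wider and no point is filled.

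**Figure D3:**
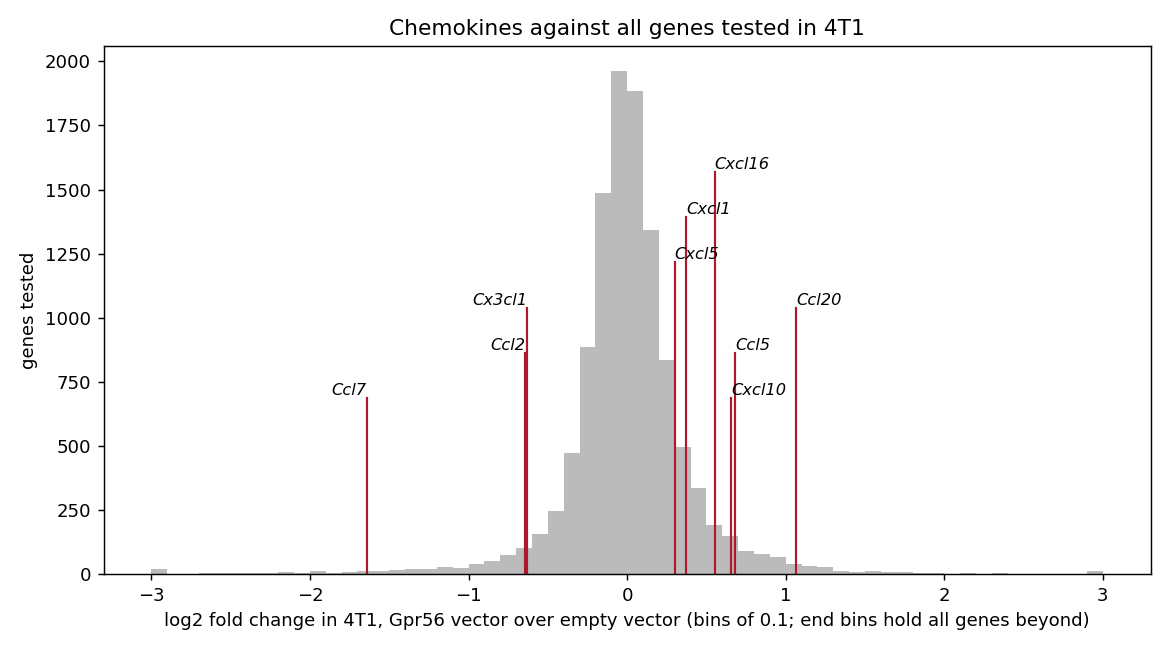
Histogram of log2 fold changes, Gpr56 vector over empty vector, for the 11361 genes tested in 4T1 (vertical axis, number of genes; horizontal axis, log2 fold change in bins of 0.1, with the end bins holding all genes beyond). Red lines mark the 9 chemokines; Ccl7 at -1.64 and Ccl20 at 1.06 lie in the sparse tails and Cxcl5 at 0.30 near the bulk.

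Markers of other cell types were read beside these changes, and their part in them was not tested. In 4T1 the 10 macrophage and monocyte markers summed to 25.2 and 28.3 CPM with the Gpr56 label and 15.02 and 13.4 CPM with the empty vector, nearly all of it Cd68 and Cd14. The defining markers Adgre1, C1qa and Tyrobp had 0 reads in every library. Lymphocyte markers summed to at most 0.0951 CPM and endothelial markers to at most 0.897 CPM. Neutrophil markers summed to 1.89 and 1.81 CPM with the Gpr56 label and 0.670 and 1.16 CPM with the empty vector. Most of this was S100a8, and Csf3r and Elane had 0 reads. Fibroblast markers summed to 9.30 and 10.5 CPM with the Gpr56 label and 16.3 and 16.2 CPM with the empty vector. Most of this was Pdgfra, at 8.02 and 8.37 CPM with the Gpr56 label and 13.2 and 13.1 CPM with the empty vector. Col3a1, Dcn, Lum and Thy1 had 0 reads in 4T1. Of 8 epithelial markers, 7 were tested in 4T1 and 7 rose (11.5% of all genes did). The 8 summed to 3066 and 2981 CPM with the Gpr56 label and 2169 and 2138 CPM with the empty vector in 4T1.

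In TS/A, 10 of 10 chemokines were tested and 0 were called, as were 0 of 11276 genes (0%) in edgeR's test of that line alone. At an unadjusted p under 0.05 there were 115 genes, 1.02%, and DESeq2 called 3 genes, none of them a chemokine. Adgrg1 was not higher in the TS/A libraries labelled Gpr56 vector, so the values compare the labels only. The median log2 fold change of the 10 was -0.35, against -0.0155 over all tested genes. The groups did not overlap for 4 of the 10 genes, 1 higher and 3 lower, where 21.7% of all tested genes did not overlap, 11.3% higher and 10.4% lower. The biological coefficient of variation was 19.6%, and chi-square per degree of freedom between replicate libraries was 118 in TS/A empty vector against at most 17.4 in the other groups.

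Cxcl5 was the only chemokine with an unadjusted p under 0.05 in TS/A. It stood at 118 and 103 CPM in the libraries labelled Gpr56 vector, against 189.7 and 171 CPM in the empty vector libraries. Both labelled libraries were lower, by 0.71 on the log2 scale (log2 fold change -0.71, 95% interval -1.14 to -0.28, unadjusted p = 0.00694, adjusted p = 0.99986 in edgeR). Ccl5 stood at 10.2 and 9.78 CPM with the Gpr56 label against 4.43 and 7.59 CPM with the empty vector, a log2 fold change of 0.73 (95% interval -0.05 to 1.52). Ccl5 was thus the 1 gene with both labelled libraries above both empty vector libraries. Cxcl10 stood at 5.29 and 3.55 CPM with the Gpr56 label and 5.78 and 6.14 CPM with the empty vector (95% interval -1.16 to 0.30). Ccl7 stood at 2.63 and 1.66 CPM with the Gpr56 label and 3.28 and 3.01 CPM with the empty vector (-1.42 to 0.32). Both were lower in each labelled library than in either empty vector library, with intervals of the log2 fold change that hold 0.

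The other 6 overlapped between the groups in TS/A. Cxcl1 stood at 394 and 497 CPM in libraries labelled Gpr56 vector and 340.3 and 605 CPM in empty vector libraries. Ccl2 stood at 62.9 and 49.2 CPM with the Gpr56 label and 58.2 and 86.6 CPM with the empty vector. Ccl20 stood at 1.71 and 2.58 CPM with the Gpr56 label and 2.34 and 3.82 CPM with the empty vector. For Ccl2 and Ccl20 an empty vector library lay between the labelled ones, and for Cxcl1 both labelled libraries lay between the empty vector ones. Cxcl16 stood at 6.40 and 8.31 CPM with the Gpr56 label and 7.58 and 8.88 CPM with the empty vector, and Cx3cl1 at 14.8 and 9.74 CPM with the Gpr56 label and 22.8 and 7.91 CPM with the empty vector. Cxcl12 stood at 7.92 and 5.26 CPM with the Gpr56 label and 8.53 and 4.85 CPM with the empty vector. For each of these 6 genes the SD within the empty vector group was larger than the gap between the means.

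The TS/A values depended on both empty vector libraries. Without library 2, Ccl5 (log2 fold change 1.197, adjusted p = 0.0216), Cx3cl1 (-0.86, adjusted p = 0.0376) and Cxcl5 (-0.75, adjusted p = 0.0112) passed, along with 1140 genes in all, and without any other TS/A library 4 to 13 genes and 0 chemokines passed. Without library 1, the log2 fold change was 0.63 for Cx3cl1 (adjusted p = 0.384), 0.44 for Cxcl12 (adjusted p = 0.565) and -0.63 for Ccl2 (adjusted p = 0.226). In such a fit the lone library left is assumed to vary like the other group. The 9 fibroblast markers together reached 218 and 158 CPM in the libraries labelled Gpr56 vector and 354 and 141 CPM in the empty vector libraries, mostly Col1a1. This sum and Adgrg1 were higher in library 1 than in library 2 of both groups, as were Cx3cl1, Cxcl12, Cxcl5 and Ccl7. Cxcl1, Cxcl16 and Ccl20 were higher in library 2 of both groups, and Ccl2, Ccl5 and Cxcl10 followed neither. Pdgfrb stood at 5.36 and 4.19 CPM with the Gpr56 label and 9.43 and 1.84 CPM with the empty vector, and Pdgfra at 7.96 to 15.8 CPM in the 4 TS/A libraries. In 4T1 Pdgfrb had at most 0.139 CPM. Other members of the list were near 0 in TS/A: Col1a2 stood at 0.0456 to 0.26 CPM, Col3a1 and Postn had at most 1 read and Dcn at most 2. Postn stood at 0.661 to 1.06 CPM in 4T1. Lum and Thy1 had 0 reads in every library, and the part of these markers in the chemokine values was not tested.

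Whether the vector effects differed between the lines was tested directly with all 8 libraries. Of the 9 chemokines for which this can be estimated, 0 were called, against 8 of 11970 genes (0.0668%). An unadjusted p under 0.05 was found for 5 of the 9, Ccl7, Ccl20, Cxcl5, Cxcl10 and Cxcl16, and for 6.4% of all genes. The difference, TS/A minus 4T1, was -1.01 for Cxcl5 (95% interval -1.40 to -0.61, adjusted p = 0.203), -1.59 for Ccl20 (-2.59 to -0.58, adjusted p = 0.489) and -1.08 for Cxcl10 (-1.96 to -0.21, adjusted p = 0.669). For Cxcl5 the adjusted p was 4.13e-05 in DESeq2 and 0.0192 without a filter on low counts. Without TS/A empty vector library 1, 5 chemokines and 311 genes passed, without TS/A empty vector library 2, 3 chemokines and 2391 genes passed, and without any other library 0 or 1 genes passed. For Ccl5, whose log2 fold change was 0.73 in TS/A and 0.68 in 4T1, the difference was 0.06 with an interval of -0.82 to 0.93.

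With the empty vector, Cxcl16, Cxcl5, Ccl20 and Ccl2 were lower in TS/A than in 4T1, and Cxcl12 was detected in TS/A alone. Of the 9 chemokines with reads in both lines, 4 were called, 0 higher and 4 lower. Cxcl12 was called as well, 5 of 10 in all, but it passed the filter on low counts only through TS/A, where it is high, so its call is no support. The background was 47.4% of 11970 genes called, 23.9% higher and 23.5% lower. The median log2 difference of the 10, Cxcl12 included, was -0.81, against 0.0146 over all tested genes. The groups did not overlap for 9 of the 10, 3 higher and 6 lower, as for 72.6% of all genes, 35.9% higher and 36.6% lower. Cxcl12 is among the 3 higher, and with 0 reads in 4T1 its separation is no support.

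The largest decrease was that of Cxcl16, at 7.58 and 8.88 CPM in TS/A empty vector libraries against 115 and 125 CPM in 4T1 empty vector libraries. This is 14.6-fold lower (log2 difference -3.87, SE 0.17, adjusted p = 1.39e-06 in edgeR). Cxcl5 was 3.39-fold lower, at 189.7 and 171 CPM in TS/A against 601 and 624 CPM in 4T1 (-1.76, SE 0.12, adjusted p = 1.84e-05). Cxcl1, its partner in function, stood at 340.3 and 605 CPM in TS/A against 306 and 334 CPM in 4T1 and did not pass (0.56, 95% interval -0.0006 to 1.123, adjusted p = 0.0906). Ccl2 was 2.38-fold lower in TS/A (-1.25, SE 0.20, adjusted p = 0.00141) and Ccl20 2.68-fold lower (-1.42, SE 0.31, adjusted p = 0.00609). The Ccl20 call was lost without 4T1 empty vector library 2 (adjusted p = 0.0561).

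The other 4 did not pass. The log2 difference, TS/A over 4T1, was 0.63 for Ccl5 (adjusted p = 0.0888), -1.05 for Cx3cl1 (adjusted p = 0.0636), -0.58 for Ccl7 (adjusted p = 0.152) and 0.11 for Cxcl10 (adjusted p = 0.760). Cx3cl1 in TS/A spanned 7.91 to 22.8 CPM, all below the 30.6 CPM of the lower 4T1 library, and its log2 difference was -2.01 without TS/A empty vector library 1 (adjusted p = 8.82e-06) and -0.50 without library 2 (adjusted p = 0.0434). Averaged over both vector groups, 7 of 10 passed, Ccl5 and Cx3cl1 in addition, against 65.1% of all genes. Cxcl12 is part of this count and the next, and its call is no support. Without TS/A empty vector library 1, 8 passed, with Ccl5, Cx3cl1 and Cxcl1 in addition, and 7853 of 12245 genes passed. Over all genes the count fell to 3335 without 4T1 empty vector library 1 and 3349 without library 2, against 5674 with all libraries.

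**Figure D4:**
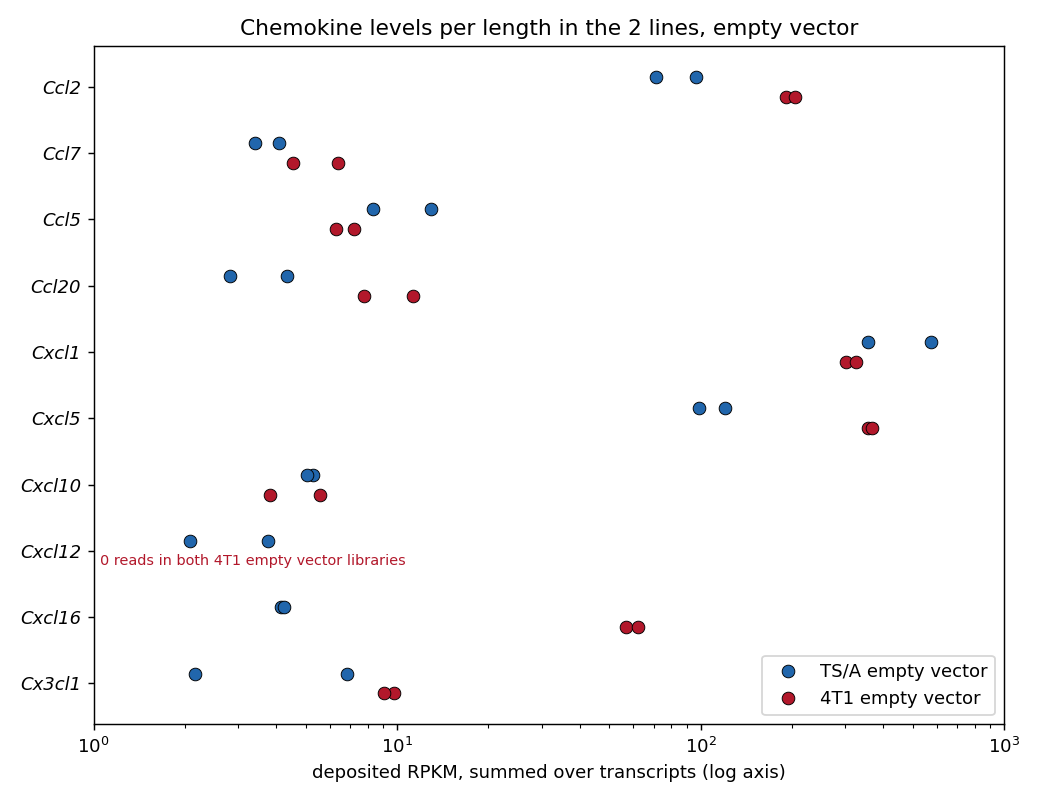
Deposited RPKM summed over transcripts (horizontal axis, log scale) of each chemokine in TS/A (blue) and 4T1 (red) empty vector libraries, 2 points per line. Cxcl16, Cxcl5, Ccl2 and Ccl20 lie to the left in TS/A, Cxcl1 is at 313 RPKM or above on average in both lines, and Cxcl12 had 0 reads in 4T1.

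Cxcl12 is the homeostatic chemokine of the set, made in several forms that differ at their C-terminal end. It had 208 and 114 reads in TS/A libraries labelled Gpr56 vector, 208 and 90 reads in TS/A empty vector libraries, and 0 reads in all 4 libraries of 4T1. With reads summed over libraries, it was at least 91.9-fold higher in TS/A with the empty vector, and at least 162-fold higher over both vectors. The floor was 3 reads over the summed libraries of 4T1. These bounds hold for the sums and not for each library. Its 3 annotated transcripts share 267 coding bases and then diverge, as the ends of their coding sequences show (GENCODE M21 on GRCm38, plus strand, stop codon left out). Capitals mark bases beyond the shared part.
Cxcl12-202, chr6:117173559-117173579: ctggagaaagctttaaacaag
Cxcl12-203, chr6:117173559-117178595: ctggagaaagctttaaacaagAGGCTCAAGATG
Cxcl12-201, chr6:117173559-117176176: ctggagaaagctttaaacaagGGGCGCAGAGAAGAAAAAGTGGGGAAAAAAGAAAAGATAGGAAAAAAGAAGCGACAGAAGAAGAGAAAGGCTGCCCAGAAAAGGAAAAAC
Their coding lengths are 267, 279 and 357 bases, or 89, 93 and 119 codons. The shortest, Cxcl12-202, the alpha form, took 74.5% and 75.4% of Cxcl12 reads in TS/A libraries labelled Gpr56 vector and 67.8% and 73.3% in TS/A empty vector libraries. Cxcl12-203, the beta form, had 44 and 18 reads with the Gpr56 label and 32 and 23 with the empty vector. Cxcl12-201, the gamma form known for its long basic end, had 9 and 10 reads with the Gpr56 label and 35 and 1 with the empty vector, so that 1 library held most of its reads.

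The 2 annotated transcripts of Cxcl16 took different shares of its reads in the 2 groups of 4T1. How often the transcript shares of other genes separate likewise was not computed, so the values describe these libraries only. Cxcl16-202, annotated as a target of nonsense-mediated decay, took 25.5% (95% Wilson interval 24.2 to 27.0) and 22.3% (20.5 to 24.2) of Cxcl16 reads in 4T1 libraries labelled Gpr56 vector. It took 37.4% (35.3 to 39.5) and 39.7% (37.9 to 41.6) in 4T1 empty vector libraries. No intervals overlap across the groups, but they cover counting error only, and an exact two-sided permutation test of 2 against 2 libraries cannot go under p = 0.333. Cxcl16-201, the protein-coding form, had 2746 and 1489 reads with the Gpr56 label and 1276 and 1605 with the empty vector. Scaled for depth, these were 45.3 and 49.6 RPKM with the Gpr56 label and 24.9 and 25.9 RPKM with the empty vector. Cxcl16-202 stood at 33.1 and 30.3 RPKM with the Gpr56 label and 31.7 and 36.4 RPKM with the empty vector, which overlapped. In TS/A the share of Cxcl16-202 was 55.4% and 33.9% with the Gpr56 label and 42.2% and 37.6% with the empty vector, and these overlapped. How reads were divided between transcripts before deposit is not known here.

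**Figure D5:**
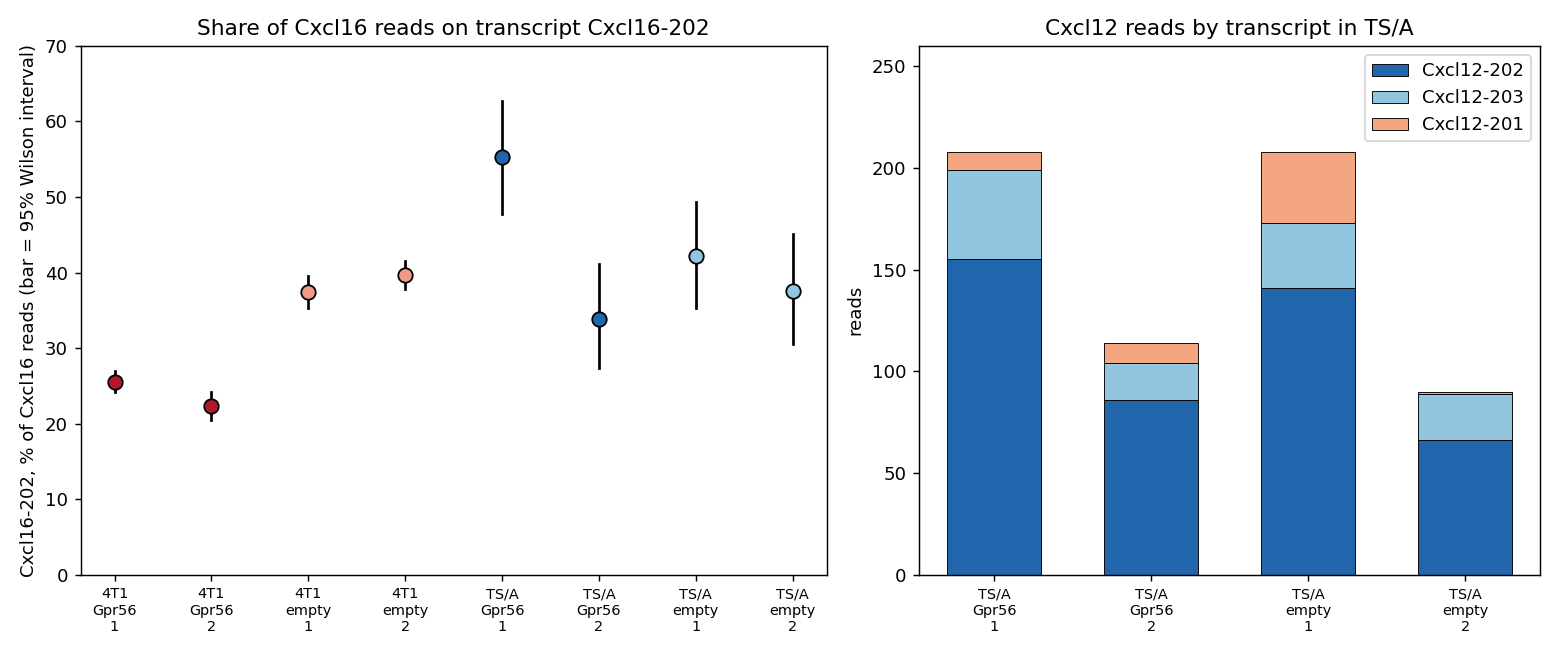
Left, share of Cxcl16 reads on transcript Cxcl16-202 (vertical axis, %) by library (horizontal axis), with 95% Wilson intervals; right, Cxcl12 reads by transcript (stacked bars from 0) in the 4 TS/A libraries. The 4T1 libraries labelled Gpr56 vector lie at 22.3% and 25.5%, under the 37.4% and 39.7% of empty vector, and Cxcl12-202 is the largest part of each bar.

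Most Ccl20 reads were split between transcripts that differ by an in-frame CAG at the junction of exons 1 and 2, shown in capitals (chr1:83116883-83117818, plus strand, GENCODE M21).
Ccl20-202: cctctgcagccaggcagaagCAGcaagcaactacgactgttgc
Ccl20-203: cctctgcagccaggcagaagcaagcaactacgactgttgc
The forms have 97 and 96 codons. Another annotated transcript, Ccl20-201, had at most 10 reads in any library. In TS/A empty vector library 1 it had 6 of 57 reads, as many as Ccl20-203. Ccl20-202 took 76.0% and 75.5% of Ccl20 reads in 4T1 libraries labelled Gpr56 vector and 75.6% and 81.0% in 4T1 empty vector libraries, so the groups overlapped while the summed level of the gene was higher. Ccl20-203 had 78 and 44 reads with the Gpr56 label and 23 and 38 with the empty vector. Scaled for depth, these were 4.50 and 5.12 RPKM with the Gpr56 label and 1.57 and 2.15 RPKM with the empty vector. Cx3cl1 reads were at least 98.45% on the transcript Cx3cl1-201 in every library. Reads from stretches that related genes share, as Cxcl1, Cxcl2 and Cxcl3 or Ccl2, Ccl7 and Ccl12 may, could be counted for either gene.

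Among 27 other chemokine genes, 18 had any read and 6 were tested in 4T1, of which 1 rose and 1 fell (all genes in 4T1: 11.5% and 11.3%). Cxcl3, a relative of Cxcl1 in the same cluster, rose to 23.7 ± 1.004 CPM with the Gpr56 label against 14.8 ± 0.116 CPM with the empty vector (log2 fold change 0.69, adjusted p = 5.47e-04). Ccl9 fell to 1.92 ± 1.26 CPM with the Gpr56 label against 4.88 ± 2.13 CPM with the empty vector (-1.22, adjusted p = 0.0265). The list's median was -0.30. Between the lines with the empty vector, 7 were tested, 2 higher and 5 lower in TS/A (all genes: 23.9% and 23.5%). Cxcl2 was higher in TS/A (9.19 ± 4.29 CPM against 1.59 ± 0.0158 CPM in 4T1, adjusted p = 0.00165), as was Ccl28, at 2.25 ± 0.0625 CPM in TS/A and 0 reads in both 4T1 empty vector libraries, a gene that passed the filter through TS/A. Ccl6 and Ccl9 were lower in TS/A, but they passed the filter only through 4T1. The calls of Ccl28, Ccl6 and Ccl9 are thus no support. Cxcl3 was lower as well (3.64 ± 0.883 CPM in TS/A against 14.8 ± 0.116 CPM in 4T1, adjusted p = 1.08e-04 in edgeR). The ligands of Cxcr2 thus differed between the lines in both directions.

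Of 23 chemokine receptors, 3 were tested in 4T1 and 1 was called, against 22.8% of all genes. Ackr3, the scavenging receptor of Cxcl12, rose to 56.8 ± 1.08 CPM with the Gpr56 label against 47.2 ± 2.87 CPM with the empty vector in 4T1 (log2 fold change 0.26, adjusted p = 0.0166). In TS/A Ackr3 stood at 57.1 ± 3.97 CPM with the Gpr56 label and 55.7 ± 20.7 CPM with the empty vector. Signalling receptors of these ligands were low. Cxcr3, the receptor of Cxcl10, stood at 0.749 and 1.03 CPM with the Gpr56 label and 0.169 and 0.282 CPM with the empty vector in 4T1, and at 0.451 to 0.700 CPM in TS/A. Ccr2 and Cxcr1 had 0 reads in every library, Cxcr4 and Cx3cr1 at most 1, Ccr6 at most 2, and Cxcr2 at most 1.31 CPM. Between the lines 0 of 3 tested receptors were called, against 47.4% of all genes.

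Among 12 enzymes and inhibitors that shed or trim chemokines, 7 were tested in 4T1, and 4 rose and 0 fell (all genes: 11.5% and 11.3%). Mmp9, a gelatinase that trims several chemokines, rose to 93.6 ± 6.91 CPM with the Gpr56 label against 60.1 ± 2.24 CPM with the empty vector (log2 fold change 0.63, adjusted p = 1.67e-05). Rhbdf2, a cofactor of Adam17 (0.45, adjusted p = 0.00173), and Mmp14 (0.20, adjusted p = 0.0415) rose as well. The list's median was 0.20. Between the lines 10 were tested, 4 higher and 3 lower in TS/A, against 47.4% of all genes called. Adam10 was higher (186 ± 39.5 CPM in TS/A against 128 ± 4.24 CPM in 4T1, adjusted p = 0.0199 in edgeR). Mmp2 and Timp3 were higher too, but had at most 0.329 CPM in any 4T1 library. They passed the filter on low counts only through TS/A, so their calls are no support. Mmp9 was lower (14.8 ± 2.0 CPM in TS/A against 60.1 ± 2.24 CPM in 4T1, adjusted p = 3.33e-05), as were Rhbdf1 and Timp1.

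All 22 genes of the NF-kappaB pathway list were tested, and in 4T1 4 rose and 3 fell, with a median of -0.04, where 22.8% of all genes were called. Ikbke, a kinase related to the IKK complex, rose to 45.9 ± 0.916 CPM with the Gpr56 label against 21.8 ± 3.10 CPM with the empty vector (log2 fold change 1.07, adjusted p = 3.60e-06). Ikbkg and Nfkbib also rose. The inhibitor Nfkbie (-0.69, adjusted p = 7.21e-04) and the subunit genes Nfkb1 (-0.24, adjusted p = 0.00579) and Nfkb2 (-0.20, adjusted p = 0.0195) fell. Between the lines 1 was higher and 9 were lower in TS/A, against 23.9% and 23.5% of all genes. Tnfaip3, a feedback inhibitor, stood at 37.3 ± 8.17 CPM in TS/A against 179 ± 2.51 CPM in 4T1 (-2.26, adjusted p = 5.75e-05). Tnip1 and Traf1 were lower too, and Nfkbia, the gene of the inhibitor IkappaB alpha, was higher (0.84, adjusted p = 0.00160).

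Of 20 regulators of the interferon response, all tested, 6 rose and 2 fell in 4T1 (all genes: 11.5% and 11.3%), with a median of 0.20. Socs1, a feedback inhibitor of cytokine signalling, rose to 7.59 ± 0.125 CPM with the Gpr56 label against 3.55 ± 0.233 CPM with the empty vector (log2 fold change 1.10, adjusted p = 0.00125). Stat3 (0.31, adjusted p = 0.00258) and the RNA sensor Ifih1 (0.64, adjusted p = 0.00755) rose. Irf1 (-0.42, adjusted p = 4.53e-04) and Jak1 (-0.19, adjusted p = 0.0235) fell. Between the lines 6 were higher in TS/A, among them Tmem173, Tyk2 and Socs1, and 4 were lower, among them Irf2, Ddx58 and Jak1, where 47.4% of all genes were called.

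Among 23 cytokines that induce chemokines and their receptors, 19 were tested in 4T1, and 1 rose and 1 fell, with a median of 0.08, where 22.8% of all genes were called. Il1a, the gene of interleukin 1 alpha, rose to 292 ± 8.76 CPM with the Gpr56 label against 207 ± 10.1 CPM with the empty vector in 4T1 (log2 fold change 0.50, adjusted p = 2.25e-05). Il6st, the shared receptor chain of the interleukin 6 family, fell (-0.36, adjusted p = 3.23e-04). In TS/A Il1a stood at 0.348 ± 0.101 CPM with the Gpr56 label and 0.170 ± 0.165 CPM with the empty vector. Between the lines 19 were tested, where 47.4% of all genes were called. In TS/A 4 were higher, among them Tnfrsf1a, Tgfb1 and Il17rc, and 3 were lower, Il1a, Il17ra and Ifngr2. Il1a passed the filter on low counts only through 4T1, so its call is no support. Tnf had at most 6 reads in any library, and Ifnb1 and Il17a had 0. With the TS/A vector labels 0 genes of these 6 lists were called in either direction.

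The genes most like the 3 most abundant chemokines were found by Pearson's correlation of log2 CPM over the 8 libraries, among 8741 genes with a mean of at least 10 CPM. The 8 points share 2 lines and 4 groups, so the contrast of the lines and, as for Cxcl1, the spread between TS/A libraries both enter these values. For Cxcl5 the closest were Mbnl3 (0.999), Krt14 (0.995) and Rdh10 (0.995). For Cxcl1 they were Cep19 (0.982), Arpc3 (0.964) and Snap23 (0.955), and for Ccl2 they were Gfod2 (0.992), Fam98a (0.992) and Eny2 (0.979).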

How the data were processed

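The 8 libraries are bulk RNA sequencing of 4T1 and TS/A cells. RNA came from the RNeasy Mini Kit and was sequenced as TruSeq v2 libraries, per the labels' protocols. That kit does not preserve strand, so antisense reads of overlapping genes cannot be told apart. Per the file headers, the authors deposited a whole-number read count (total gene reads) and an RPKM value for each of 65042 transcripts per library. No aligner, counting program or genome build is named (not given in the sources used here).

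Deposited counts were summed to 22026 genes by name, with the trailing number removed, and 15815 had reads. The deposited RPKM values were summed likewise for levels per length and entered no test. GENCODE M21, which held 65023 of the transcript identifiers, gave coordinates and transcript types. Depth was 10510569 to 25959142 reads per library. Intervals on shares (95%, Wilson) and the floor of 3 reads cover counting error only. Replicate libraries differed beyond sampling noise in every group (3.58 to 118 chi-square per degree of freedom), so none were merged for a test. The bound on Cxcl12 sums reads over libraries.

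Tests used edgeR 4.0.16 in R 4.3.3, with filterByExpr, TMM scaling, glmQLFit and glmQLFTest, Benjamini-Hochberg adjustment over all genes tested and a threshold of 0.05. Vector effects were fitted on the 4 libraries of 1 line, and the contrast of the lines and the difference between vector effects on all 8. The standard error was taken as log2 fold change over the root of the quasi-likelihood F statistic. Marker sums are CPM of the library total. The code was tested on simulated counts. The chemokines, the lists, the markers and the use of single-line fits were chosen with earlier results of these data known. Named genes were the 10 chemokines, Adgrg1, the genes of like pattern, and from each list at most 3 called members per direction by smallest p, or the 2 of highest mean CPM where none was called. Receptors and cytokines named for counts near 0, and single marker genes, were chosen after their values were seen. Alternatives were other scalings, DESeq2 1.42.0, limma-voom (limma 3.58.1), other filters, genes summed through GENCODE, a replicate block, all 8 libraries in 1 fit, the mean of both vector groups, and leaving out each library.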

Additional observations from a re-analysis of the deposited data

Results flagged for a closer look

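Cxcl5 and Cxcl10 stood out because both libraries labelled Gpr56 vector lay on opposite sides of both empty vector libraries in the 2 lines. Of all tested genes, 61.7% did not overlap between the groups in 4T1 and 21.7% in TS/A. The share that did so in opposite directions was not computed. Both genes were picked by this separation, so the differences below, from the same values, are no further support. Cxcl5 had a log2 fold change of -0.71 in TS/A and 0.30 in 4T1, a difference between the vector effects of -1.01 (95% interval -1.40 to -0.61, unadjusted p = 0.000339, adjusted p = 0.203 in edgeR). The difference was -1.11 to -0.91 over all alternatives. Cxcl10 had a log2 fold change of -0.43 in TS/A and 0.65 in 4T1, a difference of -1.08 (95% interval -1.96 to -0.21, adjusted p = 0.669 in edgeR). It was -1.40 to -0.83 over the alternatives that tested Cxcl10, which the filter of at least 10 CPM left out. Neither passed the adjusted threshold in the 8-library fit, and Adgrg1 was not higher in the TS/A libraries labelled Gpr56 vector.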

How the results depend on the processing

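In 4T1, 2588 genes and 9 chemokines were called. With all 8 libraries in 1 fit these were 27 and 0, and DESeq2 called 1549 genes. In TS/A, 0 genes were called, against 3 in DESeq2, 4 without a filter on low counts and 1 with all 8 libraries. For the difference between the vector effects, 8 genes and 0 chemokines were called, against 4 genes with library totals, 65 genes and 1 chemokine in DESeq2, 0 genes in limma-voom, and 60 genes and 1 chemokine without a filter. Leaving out each library gave 1403 to 2748 genes and 7 to 9 chemokines in 4T1, 4 to 1140 and 0 to 3 in TS/A, 3335 to 7853 and 4 to 8 between the lines (5674 and 5 with all libraries), and 0 to 2391 and 0 to 5 for the difference. Cxcl12 is counted among the chemokines called between the lines, and its call is no support. The cause of these changes was not tested.

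Replicate numbers are shared across groups, but deviations of same-numbered libraries from their group means correlated at -0.0363 in 4T1 and 0.383 in TS/A, with 2 pairs each, and nothing in the labels ties the numbers to a shared culture or day. With the number as a replicate block, 2824 genes and 9 chemokines were called in 4T1, 26 and 0 in TS/A, 5789 and 6 between the lines, and 3 and 0 for the difference.

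Some log2 values changed sign. Cxcl10 between the lines was -0.43 with the mean of both vector groups, and -0.14 to 0.39 when each library was left out. Leaving out each library gave, in TS/A, -0.86 to 0.63 for Cx3cl1, -0.45 to 0.41 for Cxcl1, -0.34 to 0.44 for Cxcl12 and -0.37 to 0.0231 for Cxcl16. For the difference it gave -0.28 to 0.50 for Ccl5, -0.25 to 1.27 for Cx3cl1 and -0.81 to 0.0198 for Cxcl1. Of 114 values in 4T1, 98 kept their direction and side of the threshold, 16 lost the call and 0 changed sign. No scaling moved the median of all genes by over 0.1. Chemokines under 10 CPM, as Ccl7 and Cxcl10, rest on few reads. With 2 libraries per group, each result rests on few samples.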
